A study of Mus musculus with 6 samples.

Results

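Stem and progenitor cells of blood formation were looked for among leukocytes of the inflamed mouse knee. They were chosen by the RNA counts of the cells: at least 3 of the 5 genes Angpt1, Meis1, Mecom, Adgrl4 and Muc13 had a count of 1 or more, the granule genes Elane, Mpo and Prtn3 together made up less than 0.5% of the RNA molecules counted in the cell (UMIs, after the barcode by which each molecule is counted once), and Col1a1 and Dcn, genes of fibroblasts, were at 0. This selected 499 of 32953 cells, or 1.51% (95% Wilson interval 1.39 to 1.65%). The levels of the 5 genes that chose the cells are given as a description only.

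Blood stem cells normally reside in the bone marrow, divide rarely and give rise to all blood lineages through progenitors whose choice of fate narrows step by step. The transcription factors Meis1, Mecom and Hlf belong to the program that keeps stem cells multipotent, whereas the receptors Kit and Flt3 bind stem cell factor and Flt3 ligand. Early progenitors often hold low levels of RNA from several lineages before one of them prevails.

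All 6 samples came from C57BL/6 mice with antigen-induced arthritis of the knee, in which a joint is challenged with a protein to which the animal is already immune. The antigen was methylated bovine serum albumin (mBSA), 10 μg given under the skin with complete Freund's adjuvant to prime and 100 μg given into the knee on day 21, the same for every sample. The groups differed in the intraperitoneal treatment that started with the challenge, which was PBS as vehicle (2 samples) or 300 μg of PEPITEM, a peptide that limits leukocyte trafficking (4 samples). CD45+ cells sorted from the digested joints were sequenced from the 3′ ends of their RNA, and the digest was made from dissected limbs. The barcodes carry library numbers 1 to 6 that no label ties to a sample, so treatments were not compared and every value below is given over libraries of unknown treatment. Intervals cover counting error only, and no test was run between groups of cells, since cells of 1 library are not replicates.

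The cells were present in all 6 libraries. They made up between 0.626% and 2.55% of a library, with a median of 1.08%. Library 2 held 148 of 5809 cells (2.55%, Wilson interval 2.17 to 2.99%) and library 6 held 159 of 7539 (2.11%, 1.81 to 2.46%), whereas libraries 1, 3 and 4 held 30, 19 and 25 cells and each stayed below 1%. The intervals of libraries 2 and 6 lay above those of the other 4 libraries. Granule precursors, defined here as cells with at least 0.5% of their UMIs from Elane, Mpo and Prtn3 and fewer than 3 of the 5 genes, ranged from 0.582% to 3.71%, and B cell precursors with at least 2 of Igll1, Vpreb1 and Vpreb3 from 1.43% to 6.52%. The share of stem and progenitor cells was highest in library 2, where B cell precursors were also highest, while granule precursors were highest in library 6.

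**Figure D1:**
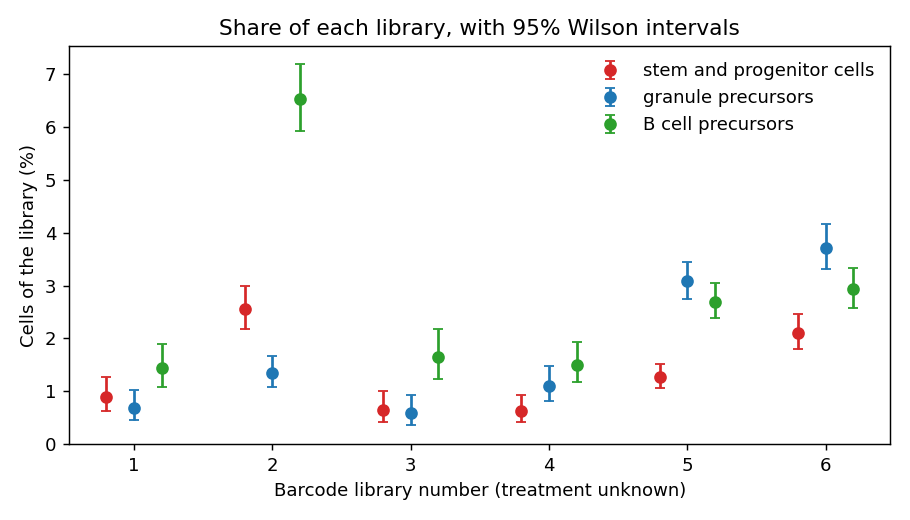
Share of each library (y axis, percent of its cells) made up by stem and progenitor cells, granule precursors and B cell precursors, with 95% Wilson intervals, for barcode library numbers 1 to 6 (x axis). Stem and progenitor cells reached 2.55% in library 2 and stayed below 1% in libraries 1, 3 and 4.

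The cells were deeply covered. Their median was 19745 UMIs and 4492 genes, against 11376 UMIs over all cells, and single cells ranged from 1396 to 58419 UMIs. Granule precursors were deeper, at a median of 34975.5 UMIs, and B cell precursors shallower, at 9422. The choice asked for UMIs of 3 genes, and its part in the depth was not tested. The library medians of the stem and progenitor cells lay between 18376.5 and 22817 UMIs, and the sum per library between 455442 and 3405021 UMIs. Levels below are UMIs of a gene summed over the cells of a group, per 1000000 UMIs of that group (CPM). After each cell was thinned to 5000 UMIs, which left out 7 of the cells, the median was 2117 genes, against 1956 in granule precursors, 2206 in B cell precursors and 1428.5 in mature neutrophils. Mitochondrial genes took a median of 2.67% of their UMIs, against 1.89% over all cells. Between libraries, 138 barcodes were shared, and 4 of the stem and progenitor cells carried one of them.

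Of the 5 genes that chose the cells, Meis1 (chromosome 11, 18879817 to 19018985, minus strand, GRCm38) was detected in 474 cells at 487 CPM. Angpt1 (chromosome 15, 42424723 to 42676977, minus strand), which encodes the vessel factor angiopoietin 1, was detected in 444 cells at 611 CPM. Adgrl4 (chromosome 3, 151437887 to 151545086, plus strand), an adhesion receptor, was found in 414 cells and Muc13 (chromosome 16, 33794037 to 33819934, plus strand), a mucin of the cell surface, in 406 cells. Mecom (chromosome 3, 29951296 to 30548008, minus strand), a zinc finger factor of stem cells, was the least often detected, in 244 cells (48.9%) at 232 CPM. Exactly 3 of the 5 genes were found in 171 cells, 4 in 171 and all 5 in 157.

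Cells close to the thresholds differed in steps. The 374 cells that met the other conditions with only 2 of the 5 genes had 31.6 CPM of Cd34 and 20.8 CPM of Hlf, the 171 cells with 3 genes had 75.2 and 40.1 CPM, and the 157 cells with all 5 had 242 and 188 CPM. The B cell factor Ebf1 ran the other way, at 2403 CPM with 2 genes, 1558 CPM with 3 and 58.9 CPM with all 5. At the limit on granule RNA, 11 cells lay between 0.4% and 0.5% and 8 cells just outside, between 0.5% and 0.6%. The protease Ctsg was at 1469 CPM in the former and 1536 CPM in the latter, and Cd34 at 221 and 211 CPM. Other genes were further apart, with Hlf at 48.7 and 13.6 CPM, Myct1 at 137 and 64.6 CPM and Gata2 at 57.3 and 30.6 CPM higher inside, and Mecom at 40.1 and 95.2 CPM, Flt3 at 126 and 160 CPM and Kit at 115 and 129 CPM higher outside. In all, 132 cells with 3 or more of the genes were left out for granule RNA and 3 for Col1a1 or Dcn.

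The label was checked on genes that the choice did not use. Cd34, a sialomucin of stem and progenitor cells (chromosome 1, 194938819 to 194961279, plus strand), was at 162 CPM in the lowest library, 180 in the median and 237 in the highest, and at 5.74 CPM in all other cells together. No library of stem and progenitor cells came near the other cells, whose libraries ranged from 1.76 to 9.93 CPM. The ratio to all other cells was 30.3 (interval 28.5 to 32.2), and that to granule precursors, at 18.5 CPM, was 9.40 (8.51 to 10.4). Granule precursors were defined by fewer of the genes that chose the cells, so the ratio to them is no check independent of the choice. The 132 cells left out for granule RNA had Cd34 at 138 CPM, below the lowest library at 162 CPM but far above granule precursors.

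Among the growth factor receptors, Kit ranged from 108 CPM in the lowest library through 159 in the median to 191 in the highest, against 39.1 CPM in granule precursors and 1379 CPM in mast cells. Flt3, a receptor of lymphoid and myeloid progenitors, ranged from 136 through 151 to 233 CPM, against 7.01 CPM in granule precursors. Both receptors were higher than in granule precursors in 6 of 6 libraries. Procr, the protein C receptor used to sort long-term stem cells, varied more than these 2 receptors, from 2.20 CPM in the lowest library (library 3) to 80.1 CPM in the highest (library 2), with a median of 30.5. It exceeded all other cells in 4 of 6 libraries and granule precursors in 6 of 6.

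At equal depth, Cd34, Kit and Flt3 were found in more of the stem and progenitor cells than of T cells and mature neutrophils, which should lack them, but other cells shared them. With each cell thinned to 5000 UMIs, Cd34 was found in 44.1% of the stem and progenitor cells (exact binomial interval 39.7 to 48.6%), in 0 of 1094 T cells and in 0.105% of mature neutrophils. At this depth the count of 0 allows a share of T cells with a UMI of up to 0.274%, and without thinning 0.416% of T cells and 0.401% of mature neutrophils held a Cd34 UMI. Kit was found in 46.1% (41.7 to 50.7%), against 3.20% of T cells and 1.87% of mature neutrophils. Flt3 was found in 33.9% (29.8 to 38.3%), against 1.55% and 0.954%. In the 132 cells left out only for granule RNA, Cd34 was found in 43.2% (34.6 to 52.1%), an interval that overlaps that of the stem and progenitor cells, Kit in 31.1% and Flt3 in 15.2%. Kit was also found in 95.3% of mast cells, 16.8% of granule precursors and 11.3% of B cell precursors. Without thinning the shares were 66.7% for Cd34, 80.2% for Kit and 53.1% for Flt3, at a median of 19745 UMIs, while T cells had a median of 9974 and mature neutrophils of 10572 UMIs. Hlf did not separate as widely, with 23.6% of the stem and progenitor cells (19.9 to 27.6%) and 11.4% of T cells (9.60 to 13.5%).

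For counts of genes, a gene was compared when the mean of the 2 groups was at least 10 CPM, leaving out the genes used by the choice. Against granule precursors 8376 genes were compared, of which 1729 (20.6%) were at least 2-fold higher and 700 (8.36%) at least 2-fold lower in stem and progenitor cells, with a median log2 ratio of 0.24. Granule precursors were defined by more granule RNA and fewer of the 5 genes, so counts of stem cell and granulocyte genes against them describe the choice of both groups and support nothing beyond it. Against all other cells 8576 genes were compared, of which 1787 (20.8%) were at least 2-fold higher and 1154 (13.5%) at least 2-fold lower, with a median of 0.31.

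Of 11 stem cell surface proteins and receptors compared with granule precursors, 9 were at least 2-fold higher and 0 lower, with a median log2 ratio of 3.23. Over all genes in this comparison, 20.6% were higher and 8.36% lower, and the count describes the choice of both groups. Eng, a coreceptor of transforming growth factor beta, was at 96.1 CPM against 5.54, and Cd27 at 56.9 CPM against 7.54. The 2 that stayed within 2-fold were Cd48, at 87.0 CPM against 75.9, and the tetraspanin Cd9, at 115 CPM against 175. Summed over the 15 listed surface genes, the level was 1111 CPM, against 369 CPM in granule precursors, 1068 CPM in macrophages and 2223 CPM in mast cells. Cd48 is used to set progenitors apart from the most immature stem cells, which lack it, and 65.3% of the stem and progenitor cells held a UMI of it. Against all other cells Ly6a, which encodes the antigen Sca-1, was lower at 48.5 CPM against 133 CPM, and higher in only 1 of 6 libraries.

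Of 16 stem cell transcription factors compared, 14 were at least 2-fold higher than in granule precursors and 0 lower, with a median log2 ratio of 3.42. This count, too, stands beside 20.6% higher and 8.36% lower over all genes and describes the choice of both groups. Summed over the 22 listed factors, the level was 4377 CPM, against 1005 CPM in granule precursors, 3125 CPM in B cell precursors and 2073 CPM in the 132 cells with 3 or more of the genes that were left out for granule RNA. Hlf ranged from 73.1 CPM in the lowest library through 126 in the median to 242 in the highest, against 7.99 CPM in granule precursors. Gata2, a zinc finger factor of stem cells and of the mast cell and megakaryocyte branches, ranged from 72.5 through 130 to 161 CPM, against 0.678. Neither factor overlapped with granule precursors in any library.

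Hoxa9 stood at 49.9 CPM against 6.52, Tal1 at 71.1 against 5.28, and the RNA-binding protein gene Msi2 at 722 against 36.2 CPM. Nkx2-3 was at 26.2 CPM with 0 UMIs in granule precursors. The 2 factors within 2-fold were Myb, at 226 CPM against 152, and Lyl1, at 26.8 CPM against 41.8.

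**Figure D2:**
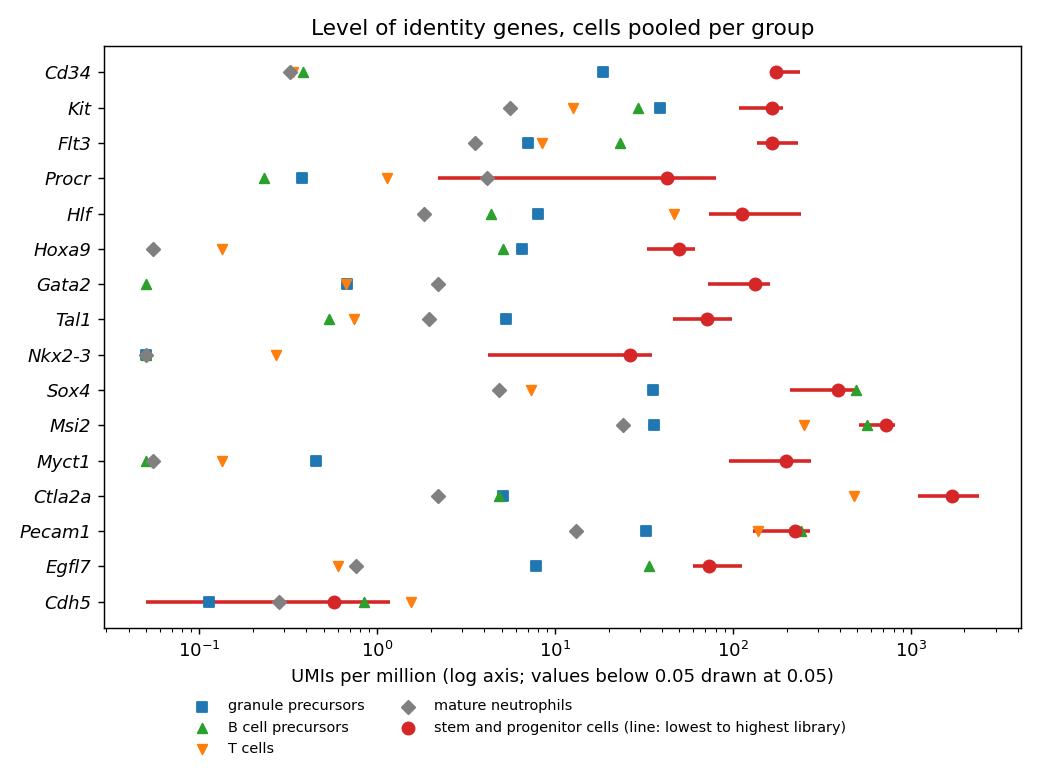
Level of stem cell, receptor and vessel genes (y axis) in CPM on a log axis (x axis), for stem and progenitor cells (red point, with a line from the lowest to the highest library) and 4 other groups of cells. Cd34 lay at 174 CPM against 18.5 in granule precursors, and Cdh5 lay at 0.568 CPM.

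Several genes of this profile are shared with vessels, so vascular markers were counted. Pecam1, an adhesion molecule of endothelium and of many leukocytes, was at 224 CPM and was the most abundant of 12 listed vascular genes, and Egfl7 was at 73.6 CPM. Of the 12 genes, 10 were present, their sum was 342 CPM against 76.4 CPM in all other cells, and 125 cells (25.1%) held 3 or more of them. Only Pecam1 and Egfl7 had enough UMIs to be compared with all other cells. Of these, 2 of 2 were at least 2-fold higher, beside 20.8% of all genes compared. Genes low in the other cells could pass the filter only through the stem and progenitor cells, so this count is not read as a result. B cell precursors had 279 CPM of the 12 genes. Among genes that define endothelium, Cldn5 and Sox17 had 0 UMIs in 10559512, which allows up to 0.284 CPM each, Cdh5 had 6 UMIs and Kdr 15. All other listed genes were present and add to the sum, so these low counts do not speak for the whole list. The summed level of the vascular genes ranged from 233 to 379 CPM over libraries, and the part of vascular cells in the results was not tested. Of 7 fibroblast genes, Col3a1 and Pdgfra were at 0, and the sum was 6.16 CPM, led by Thy1 at 2.56 CPM and ranging from 2.78 to 11.9 CPM over libraries. The leukocyte gene Ptprc, which encodes CD45, was found in 87.8% of the cells at 253 CPM, 3.06-fold below all other cells and at 225 CPM in granule precursors.

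Neutrophil RNA was concentrated in a handful of cells. The 9 listed neutrophil genes, all detected, summed to 6111 CPM, but 8 cells with 3 or more of them held 99.8% of these UMIs and 449 cells had none. S100a9 was the most abundant at 2417 CPM. Per library the sum ran from 0 through a median of 649 to 12089 CPM. Those 8 cells had a median of 37416 UMIs, and 1 cell alone gave 5948 UMIs of S100a8. Doublets had been removed before deposit, and whether some remained was not tested.

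Of 11 monocyte and macrophage genes, 9 were present and summed to 132 CPM (62.6 to 158 CPM over libraries), led by F13a1 at 58.1 CPM, with Ace and Cd300e at 0. C1qa was found in 3 cells. All 9 genes of T and natural killer cells were present and summed to 173 CPM (149 to 235 CPM), of which Nkg7 gave 168 CPM, while Cd3d and Cd3e had 1 UMI each. Of 8 dendritic cell genes Xcr1 was at 0, and the sum was 47.8 CPM (18.1 to 66.4 CPM), led by Zbtb46 at 26.3 CPM. The part of cells with RNA of another type in the levels given was not tested, and the values without cells that held S100a8, C1qa or Cd79a are given with the processing below.

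Some of the cells were at odds with the label. Ebf1 was detected in 61 cells (12.2%) and Cd79a, a chain of the B cell receptor complex, in 52, with a median of 11855 UMIs in the Ebf1 cells against 20210.5 in the rest. In the cells with Ebf1, Cd79a was at 734 CPM, the surrogate light chain gene Vpreb1 at 804 CPM and the recombinase gene Rag1 at 218 CPM, against 0.315, 2.41 and 0.105 CPM in the others. Hlf was at 12.6 CPM in them against 124 CPM, lower in 4 of the 4 libraries with at least 5 cells on both sides, and Cd34 at 81.6 against 184 CPM. The 8 B cell genes summed to 942 CPM in all the cells (409 to 1390 CPM over libraries), 94.5% of it in 47 cells with 3 or more of the genes. These cells met the choice, but their leading genes were those of B cell precursors, and they are kept in the values below unless stated.

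Within the stem and progenitor cells, RNA of single lineages divided the cells. For a description of this, cells with a UMI of a gene were set beside the remaining cells. The genes used to divide them (Mecom, Procr, Flt3, Dntt, Ebf1, Pf4, Car1, Cpa3, Mcpt8 and Ctsg) were picked after their values had been seen, and a library was counted when it had at least 5 cells on both sides.

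Mecom is one of the genes that chose the cells, and cells without it had to hold 3 of the other 4, so the split by Mecom is a description only. The 244 cells with Mecom had Hlf at 170 CPM against 58.4 in the other 255, Procr at 74.1 against 12.5 CPM and Ly6a at 78.0 against 20.6 CPM. Kit was nearly level, at 172 against 159 CPM. Myct1, a small nuclear protein gene, was at 304 against 99.6 CPM. Lineage genes differed in direction. Car1 was at 54.8 against 553 CPM, Mcpt8 at 33.0 against 130 CPM and Irf8, a factor of monocytes and dendritic cells, at 38.4 against 138 CPM. Of the megakaryocyte genes, Itga2b was at 84.6 against 73.3 CPM and Rab27b at 87.9 against 70.2 CPM, while Pf4 was detected in 22.1% against 11.0% of cells but at 279 against 354 CPM. The depth of both sides was close, with medians of 20058.5 and 19093 UMIs. Of the 97 cells with Procr, 77 (79.4%) also held Mecom, which was 31.6% of the Mecom cells. Hlf was at 224 CPM and Ly6a at 96.8 CPM in the cells with Procr, above their levels in the cells with Mecom. Car1 (14.6 against 380 CPM) and Irf8 (19.2 against 106 CPM) were lower in the cells with Procr, as in the split by Mecom. Mcpt8 ran opposite to that split, at 198 against 56.2 CPM, higher in 2 of 4 libraries. So did Cpa3, at 223 against 115 CPM, higher in 3 of 4.

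Lymphoid genes were concentrated in the 146 cells with Dntt, which encodes the DNA polymerase that adds bases to antigen receptor joints. In them Satb1, a chromatin organizer of lymphoid progenitors, was at 1201 CPM against 96.1 CPM in the rest (ratio 12.5, interval 11.5 to 13.6), and the interleukin 7 receptor gene Il7r at 97.6 against 5.03 CPM. Flt3 was at 376 against 90.2 CPM. All 3 were higher in 6 of 6 libraries. Gata1, Gata2, Itga2b and Cpa3 were each lower in 6 of 6 libraries, with Gata2 at 29.6 against 170 CPM. Of the Dntt cells 76.0% held Flt3, and 33.6% held Ebf1. The latter were 49 of the 61 Ebf1 cells described above as at odds with the label. Their part in the lymphoid levels of the Dntt cells was not tested.

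Megakaryocyte genes were concentrated in the 82 cells with Pf4, a platelet chemokine gene that macrophages also express. The platelet integrin gene Itga2b was at 257 CPM in them against 44.5, the platelet receptor chain Gp1bb at 68.6 against 2.71 and von Willebrand factor, Vwf, at 79.2 against 2.48 CPM. Treml1 was at 46.9 against 1.36 CPM. Each was higher in 3 of 3 libraries counted. Mecom was at 374 CPM in these cells against 205, while Flt3 was at 63.9 against 186 CPM. Pf4 itself varied from 3.41 CPM in library 4 to 427 CPM in library 1.

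Erythroid genes were concentrated in the 77 cells with Car1, a carbonic anhydrase of red cell precursors. Klf1, the erythroid Krüppel-like factor, was at 68.6 CPM against 2.11, Gfi1b at 66.0 against 6.56 and Gata1 at 57.1 against 10.1 CPM, and all were higher in 4 of 4 libraries counted. The erythropoietin receptor Epor was at 23.1 against 1.56 CPM, higher in 3 of 4. Kit was at 299 against 142 CPM. Flt3 was at 11.5 against 193 CPM and Mecom at 75.6 against 259 CPM, and the 2 genes Car1 and Flt3 were found together in 4 cells. Among genes of later red cells, Slc4a1 was at 0 and Hba-a1 at 4.55 CPM. Car1 was at 0 in library 3, which had 19 cells, and at 502 CPM in library 6.

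Mast cell and basophil genes were concentrated in the 134 cells with Cpa3, a granule carboxypeptidase. The IgE receptor chains Ms4a2 and Fcer1a were at 117 against 0.938 CPM and 53.0 against 0.670 CPM, and the basophil protease Mcpt8 at 261 against 9.11 CPM. All 3 were higher in 6 of 6 libraries, as was Gata2 at 225 against 94.3 CPM. The genes of mature connective tissue mast cells were close to absent, with Mcpt4 at 3.98 CPM from 1 cell and Cma1 at 4.26 CPM. Of the cells with Cpa3, 35 (26.1%) held Car1, 3 held Dntt and 16 held Pf4. The eosinophil gene Epx was at 0.

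Granulocyte and monocyte genes were higher in the 160 cells with Ctsg, which encodes cathepsin G. These cells were also deeper, with a median of 25048.5 UMIs against 17436. The factor Cebpa was at 34.7 CPM against 4.88, Ms4a3 at 49.2 against 10.5 and Csf1r at 30.7 against 10.1 CPM, each higher in 6 of 6 libraries. Mecom was at 95.1 against 322 CPM. Of 70 cells with Mcpt8, 69 also held Ctsg. Because the choice capped Elane, Mpo and Prtn3, cells with more granule RNA were left out by construction, and the split by granule RNA showed the step: Ctsg was at 6.25 CPM in the 185 cells with no granule UMI and 754 CPM in the 137 cells with 0.05% or more.

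Most cells held at most 1 of the 5 lineage genes. Of the genes Dntt, Pf4, Car1, Cpa3 and Ctsg, 75 cells (15.03%) held none, 263 (52.7%) held 1, 147 (29.5%) held 2 and 14 (2.81%) held 3. No cell held 4 or more. Cells with none had the highest Mecom, at 638 CPM, and Hlf at 215 CPM, against 210 and 96.5 CPM in cells with 1 of the genes and 119 and 95.5 CPM in cells with 2. The 14 cells with 3 had 145 and 148 CPM. Mecom is one of the genes that chose the cells, so its level in these subsets is a description only. The 75 cells with none of the genes were also the shallowest, with a median of 15961 UMIs against 19454 with 1, 22080 with 2 and 23214.5 with 3, and the part of depth in these counts was not tested. Pf4 and Mcpt8 were found together in 0 cells, whereas Car1 and Cpa3 shared 35 cells and Cpa3 and Ctsg shared 61.

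**Figure D3:**
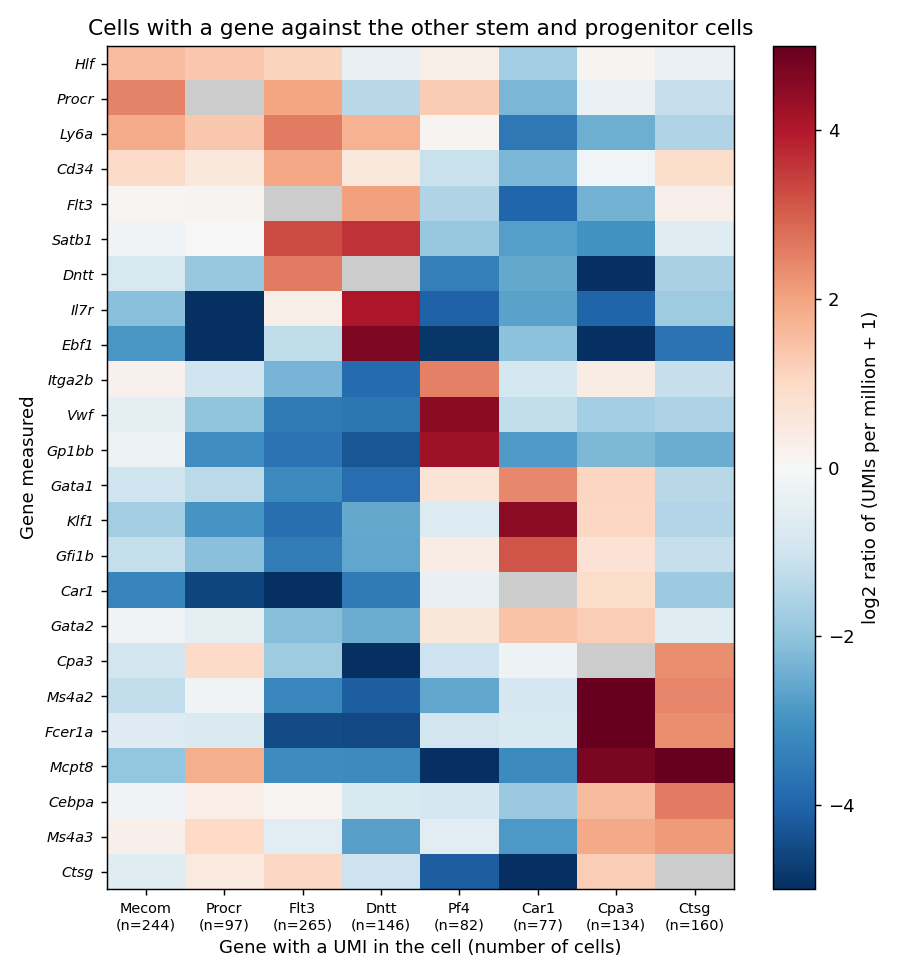
Log2 ratio (color) of the level of each gene (y axis) in stem and progenitor cells that held a UMI of the gene on the x axis against those that did not, with 1 added to both levels in CPM. Cells with Dntt, Pf4, Car1 and Cpa3 each showed a block of lineage genes, although 35 of the 77 cells with Car1 also held Cpa3. A gene is gray against itself.

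Summed over the list, erythroid genes were at 832 CPM in stem and progenitor cells and 59.4 CPM in granule precursors. Megakaryocyte genes were at 869 and 267 CPM, and lymphoid genes at 2623 and 359 CPM. Genes of mast cells, basophils and eosinophils were at 416 and 226 CPM. In all other cells these lists were at 147, 610, 2155 and 651 CPM, so the last was higher there. In the cells left out for granule RNA they were at 87.0, 242, 745 and 709 CPM. Lymphoid genes reached 13901 CPM in B cell precursors, and megakaryocyte genes 1700 CPM in macrophages. Only 3 of 12 erythroid and 4 of 9 megakaryocyte genes reached the level for the comparison with granule precursors. They did so mostly through the stem and progenitor cells, so their counts are not read as a result. Within the list of mast cells, basophils and eosinophils Hdc, which encodes histidine decarboxylase, was at 99.6 against 211 CPM in granule precursors. Of 16 granulocyte and monocyte genes 0 were at least 2-fold higher and 11 lower, with a median log2 ratio of -2.85, a direction that the limit on granule RNA fixed.

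**Figure D4:**
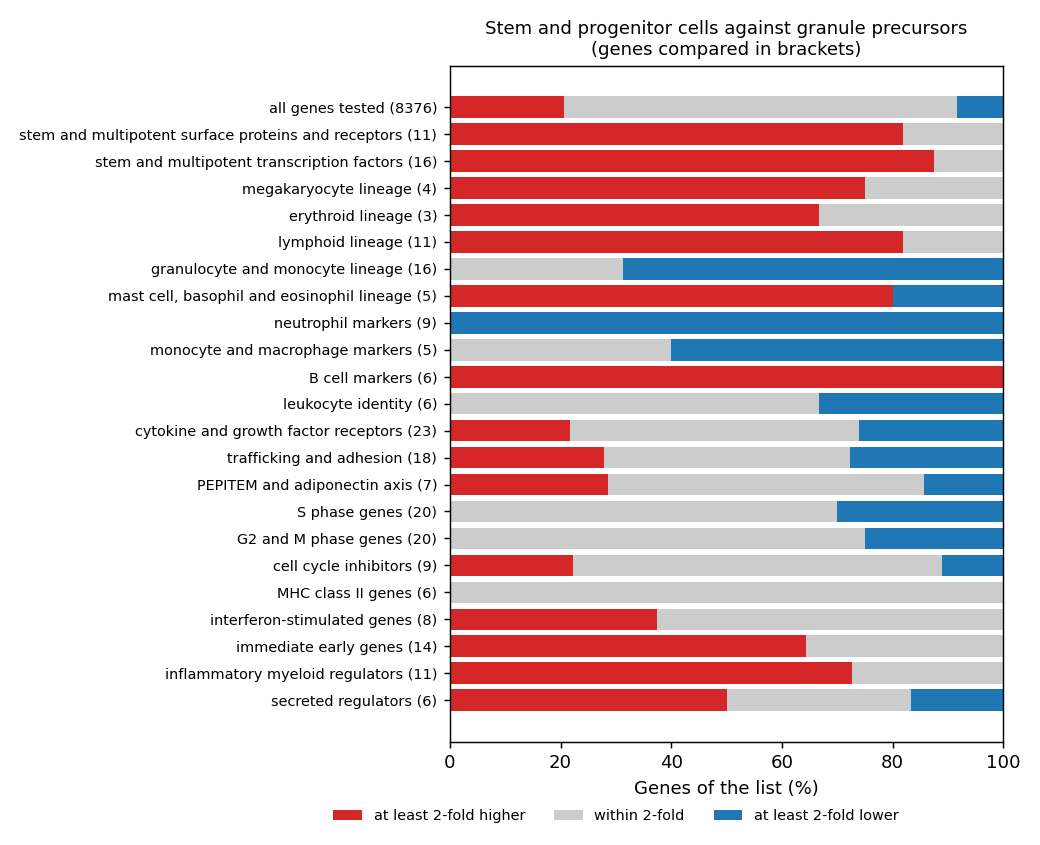
Share of the genes of each list (x axis, percent) that were at least 2-fold higher, within 2-fold or at least 2-fold lower in stem and progenitor cells than in granule precursors, beside all 8376 genes compared (top bar, 20.6% higher and 8.36% lower). Stem cell factors stood at 14 of 16 higher and granulocyte genes at 11 of 16 lower.

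The 15 genes with the largest ratio to all other cells, among genes at 50 CPM or more in at least 10% of the cells and higher in every library, were led by Myct1, at 199 CPM against 0.664 (ratio 300, interval 266 to 338). Slc22a3, an organic cation transporter, was at 131 CPM against 1.02 and Prkg1, a cyclic GMP-dependent kinase, at 348 CPM against 4.03. The phosphodiesterase gene Pde10a was at 361 CPM against 4.71. Ctla2a, a cysteine protease inhibitor, was the most abundant of the 15, ranging from 1098 CPM in the lowest library through 1759 to 2412 in the highest, against 30.5 CPM.

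Also among them were the thrombin receptor gene F2r (102 CPM), the integrin gene Itga2b (78.8 CPM), the monoamine transporter gene Slc18a2 (122 CPM), Rab38 (111 CPM), Mdga1 (74.2 CPM), 4930519L02Rik (64.6 CPM), Hmga2 (59.9 CPM), Samd12 (55.1 CPM) and Cd34. Hmga2, a chromatin protein gene of fetal and early progenitors, varied from 5.11 CPM to 114 CPM between libraries. It was at 87.8 CPM in cells with Flt3 against 23.4 CPM in those without.

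Against granule precursors the 10 largest ratios were those of Dntt, Rab27b, Cpa3, Myct1, F2r, Ctla2a, Nrgn, Prkg1, Slc22a3 and Pde10a. Dntt was at 243 CPM against 0.188 (ratio 1287, interval 551 to 3967, with 5 UMIs in granule precursors). Rab27b, a GTPase of platelet granule release, was at 78.8 CPM with 2 UMIs in granule precursors, and Nrgn, a calmodulin-binding protein gene, at 130 against 0.452 CPM. Car1 was not among them because library 3 had none.

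The 10 genes lowest against granule precursors were Mgl2, Mogat2, Vcam1, Fcnb, Cldn15, Cebpe, Prom1, Ms4a3, Clec5a and Dmkn. Cebpe, the factor that drives secondary granules, was at 4.55 CPM against 240 (52.8-fold lower, interval 39.7 to 71.6), and Ms4a3 at 25.9 against 1048 CPM, lower in 6 of 6 libraries. The integrin ligand Vcam1 was at 1.04 against 126 CPM and the ficolin gene Fcnb at 17.3 against 1041 CPM. Levels this low rested on few cells: without library 6 Fcnb fell to 9.36 CPM and Cldn15, at 1.33 CPM with it, to 0.699, without library 2 Vcam1 fell to 0.534, without library 1 Mgl2, at 0.379 with it, fell to 0.203 and without library 5 Mogat2, also at 0.379, fell to 0.243 CPM. Without cells that held S100a8, C1qa or Cd79a, Fcnb was at 0.429 CPM and Cebpe at 0.858 CPM.

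As sums, cell cycle genes lay below those of granule and B cell precursors, but not all lay below those of the 132 cells left out for granule RNA. The 20 S phase genes summed to 1311 CPM, from 898 CPM in the lowest library through 1486 to 1961 in the highest, against 2131 to 2746 CPM in granule precursors and 2476 to 3277 CPM in B cell precursors. The libraries of stem and progenitor cells did not overlap with either, and all 6 lay above the median of all other cells at 661 CPM. The libraries of all other cells ranged from 452 to 970 CPM, so they overlapped with the lowest library at 898 CPM. The 20 G2 and M phase genes summed to 2132 CPM (1850 to 2796 over libraries), against 3743 to 4512 CPM in granule precursors and 5820 to 8478 CPM in B cell precursors, again without overlap, and within the range of all other cells of 1099 to 2989 CPM. The 132 cells had 2027 CPM of S phase genes, above the 1311 CPM of the stem and progenitor cells, and 2150 CPM of G2 and M phase genes, level with 2132 CPM.

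At equal depth Mki67, a proliferation marker, was found in 25.4% of the stem and progenitor cells (21.6 to 29.5%), 54.7% of granule precursors and 51.2% of B cell precursors. In the 132 cells left out for granule RNA it was found in 29.5% (21.9 to 38.1%), an interval that overlaps. The S phase gene Mcm6 was found in 41.3% of the stem and progenitor cells (36.9 to 45.8%). B cell precursors, at 45.6% (42.2 to 49.0%), overlapped with this, whereas the 132 cells lay above it, at 68.9% (60.3 to 76.7%). Top2a was found in 29.9% of the stem and progenitor cells, 49.0% of B cell precursors and 42.4% of the 132 cells. By gene, 6 of 20 S phase genes and 5 of 20 G2 and M phase genes were at least 2-fold lower than in granule precursors. None were higher, and the medians were -0.73 and -0.67. Among all genes compared, 8.36% were lower and 20.6% higher. The cells with Procr had 1484 CPM of G2 and M phase genes against 2282 CPM in those without, lower in 3 of the 4 libraries counted, and 1171 against 1344 CPM of S phase genes, lower in 2 of 4. Cells with the erythroid factor Gata1 had 3299 CPM of G2 and M phase genes against 1830, higher in 3 of the 3 libraries counted. Of 9 cell cycle inhibitors compared, Cdkn1a (226 against 77.2 CPM) and Btg2 (495 against 140 CPM) were at least 2-fold higher than in granule precursors and Cdkn2c (8.62 against 23.0 CPM) lower, and 2 of 9 is close to the 20.6% of all genes compared. Against all other cells 1 was higher and 3 lower, with a median log2 ratio of -0.33, beside 20.8% higher and 13.5% lower over all genes.

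**Figure D5:**
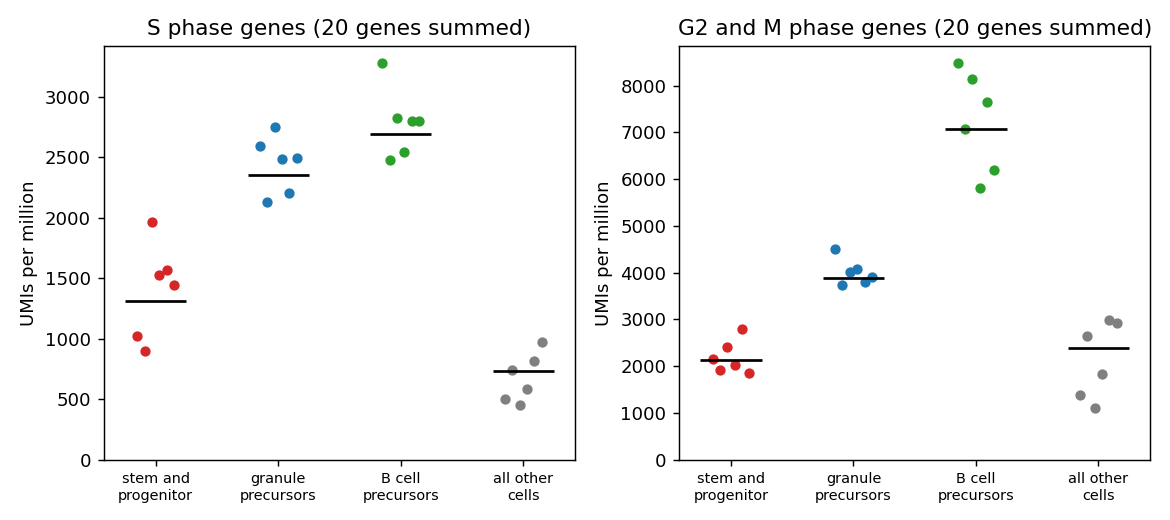
Summed level of 20 S phase genes (left) and 20 G2 and M phase genes (right) in CPM (y axis) in 4 groups of cells (x axis), with a point per library and a line at the pooled value. Stem and progenitor cells lay below granule and B cell precursors in every library for both lists.

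Receptors for cytokines were mostly below those of the other leukocytes. Of 27 compared with all other cells, 15 were at least 2-fold lower, beside 13.5% of all genes compared, and 1 was higher, beside 20.8%. The median log2 ratio was -1.16. The higher gene was the interleukin 1 receptor gene Il1r1, at 84.9 against 17.2 CPM (ratio 4.94, interval 4.61 to 5.30). It was higher in 6 of 6 libraries. The receptor of granulocyte colony-stimulating factor, Csf3r, was at 46.1 against 237 CPM, and that of macrophage colony-stimulating factor, Csf1r, at 18.3 against 188 CPM. Against granule precursors 5 of 23 were higher, among them the transforming growth factor beta receptor Tgfbr2 at 123 against 23.9 CPM, and 6 were lower, beside 20.6% higher and 8.36% lower over all genes compared.

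Of 18 trafficking genes compared with all other cells, 2 were at least 2-fold higher (Itga2b and Pecam1) and 8 lower, with a median of -0.55, beside 20.8% higher and 13.5% lower over all genes compared. The marrow retention receptor Cxcr4 was at 72.4 CPM against 171, and the beta 2 integrin chain Itgb2, needed for firm arrest on endothelium, at 22.8 against 264 CPM. The alpha 4 integrin chain Itga4 was at 194 against 134 CPM. S1pr1, the sphingosine phosphate receptor for exit from tissues, was at 25.9 CPM, against 0.678 in granule precursors and 21.7 in all other cells.

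Genes tied to PEPITEM include Ywhaz, which encodes the 14-3-3 protein whose sequence holds the peptide, and the adiponectin receptors Adipor1 and Adipor2. Adipor2 was at 155 CPM in the lowest library, 190 in the median and 240 in the highest, higher than the 82.4 CPM of granule precursors (ratio 2.27, interval 2.14 to 2.41) and the 96.8 CPM of all other cells in 6 of 6 libraries. Adipor1 was at 60.5 CPM against 91.4 and 147 CPM, lower than both in 6 of 6. Ywhaz was at 343 CPM against 299 and 378 CPM. Over the 9 genes of this axis, 2 of 7 compared with granule precursors were at least 2-fold higher and 1 lower, beside 20.6% and 8.36% of all genes. Against all other cells 0 of 7 were higher and 2 lower, with a median log2 ratio of -0.14, and Cdh15 was at 0.

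Stimulus-response genes were compared last. Of 14 immediate early genes 9 were at least 2-fold higher than in granule precursors and 0 lower, at a median log2 ratio of 1.36. Over all genes in this comparison, 20.6% were higher and 8.36% lower. Nr4a1 was at 487 against 68.9 CPM and Jund at 1004 against 245 CPM. Fos varied from 81.2 to 584 CPM between libraries and Hspa1a from 39.5 to 987 CPM, and both genes also respond to tissue digestion, whose part was not tested. Of 11 inflammatory regulators 8 were higher, at a median of 1.67, led by the NF-κB subunit gene Nfkb1, at 1234 CPM in the lowest library, 1792 in the median and 2489 in the highest against 123 CPM. Nfkb1 also exceeded all other cells, at 559 CPM, in 6 of 6 libraries. Against all other cells neither list was mostly higher. There 2 of 14 immediate early genes were higher and 3 lower, with a median of -0.50. For inflammatory regulators 1 of 11 was higher and 4 lower, with a median of -0.11. Both counts stand beside 20.8% higher and 13.5% lower over all genes in that comparison.

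Interferon-stimulated genes were low beside all other cells together, with 7 of 12 at least 2-fold lower and 0 higher and a median log2 ratio of -1.20. Among all genes in that comparison, 13.5% were lower and 20.8% higher. Against granule precursors the median ran the other way, at 0.83, with 3 of 8 higher and 0 lower. This stands beside 20.6% higher and 8.36% lower over all genes, and whether 3 of 8 exceeds that share was not tested. The sum of the list was 1413 CPM against 581 CPM there, 568 CPM in B cell precursors and 2878 CPM in all other cells. Ifitm1, a membrane protein of progenitors, was at 634 against 68.4 CPM. Of 6 class II genes of the major histocompatibility complex 5 were lower than in all other cells, with Cd74 at 101 against 2750 CPM, and 6 of 6 stayed within 2-fold of granule precursors. Among 6 secreted regulators compared with granule precursors, Tgfb1 (413 against 170 CPM), Vegfa (124 against 37.7 CPM) and Tnfsf10 (19.7 against 1.58 CPM) were higher and Anxa1 lower, at 81.7 against 633 CPM. Cxcl12 was at 0, and Kitl, which encodes stem cell factor, had 2 UMIs.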

How the data were processed

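The authors prepared 3′ single-cell libraries (Chromium), aligned reads to mm10 with Cell Ranger 7 (version per the submitters' processing notes), removed ambient RNA with SoupX and doublets with DoubletFinder, and filtered cells with Seurat. They deposited 1 pooled table of whole UMI counts, not scaled for depth, for 20394 genes and 32953 cells with 501 to 6998 genes and at most 9.99% mitochondrial UMIs. No further cell filter and no doublet caller was applied. Depth per library was 47273569 to 123367661 UMIs, and entries stored as 0 were read as 0.

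From these counts, UMIs were summed over cells and scaled to 1000000. Ratios carry exact Poisson intervals, shares Wilson or exact binomial intervals (95%), and a count of 0 a limit of 3 counts. Because barcode numbers could not be tied to samples, no differential test between treatments was run and no replicate error is given. Genes were placed on GRCm38 by symbol with GENCODE vM21. The named genes were those of the choice, genes of 26 lists (322 of 324 listed genes are in the table), the 15 largest ratios to all other cells and the 10 largest and 10 smallest to granule precursors, outside the choice, at 50 CPM or more in 10% of cells of the higher group and on the same side in all libraries. Some named genes are not reported here. The cells and lists were chosen with earlier results of these data known. Alternatives varied the number of genes, the cap on granule RNA, depth, expression filter, fold and libraries. The ratio and its interval were tested on simulated data. The tools were pandas 2.3.3, scipy 1.17.1, matplotlib 3.10.9, numpy 2.4.6 and Python 3.11.15.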

Additional observations from a re-analysis of the deposited data

How the results depend on the processing

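The share of stem and progenitor cells (1.51%) became 2.65% with at least 2 of the 5 genes, 0.995% with at least 4, 1.91% with no condition on Elane, Mpo and Prtn3, 1.23% with cells thinned to 5000 UMIs first, 1.08% as the median over libraries and 1.33% without cells that held S100a8, C1qa or Cd79a, an alternative chosen after seeing the data. Leaving out 1 library at a time gave 1.29 to 1.64%. With at least 2 and at least 4 of the genes, Cd34 was detected in 46.6% and 80.2% of the cells, Kit in 60.6% and 86.6% and Flt3 in 47.0% and 58.5%. With cells thinned first, these shares were 46.5% for Cd34, 46.5% for Kit and 34.3% for Flt3. With no condition on granule genes Cd34 was at 71.0%, and without cells that held S100a8, C1qa or Cd79a Cd34 was at 70.9% and Kit at 84.4%. Genes at least 2-fold higher than in granule precursors (1729) numbered 712 at a mean of 50 CPM, 2910 at 1.5-fold and 900 at 3-fold, and those lower (700) numbered 317, 1364 and 357, and 465 with at least 2 of the genes. Leave-one-out gave 1683 to 1795 higher and 653 to 764 lower genes. Of 440 values for the levels of 40 genes, 219 stayed within the counting interval and 54 moved by over 1.5 times, among them Ebf1, at 600 CPM, which was at 11.8 CPM without cells that held S100a8, C1qa or Cd79a and 146 CPM with at least 4 of the genes, and Car1, at 311 CPM, which was at 61.2 CPM with at least 4. The cause was not tested. No paired analysis was possible because the replicate numbers of the labels could not be tied to the barcode numbers and no result comes from a test. Taken within libraries, the median ratio gave 1804 higher and 724 lower genes. With 19 to 30 cells in 3 libraries, low levels there rest on few UMIs.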
